A study of Homo sapiens with 6 samples.

Results

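Antisense RNA genes carry the symbol of another gene followed by -AS and a digit, and most lie at or close to that gene on the opposite strand. In the count tables of MDA-MB-231 cells, 76 of the 23228 listed gene symbols had such a name. For 75 of them the symbol before -AS was also listed, which gave 74 sense partners, since ST7-AS1 and ST7-AS2 share ST7. MLK7-AS1 had no partner row. Of the 76 antisense genes, 21 had at least 10 counts in at least 3 replicates, and the same 21 passed the filter on low counts of edgeR. Another 29 had no count in any replicate.

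The MDA-MB-231 line was derived from a human triple negative breast cancer (TNBC), and all 6 samples come from it. The control group was 3 replicates of cells with a stable control non-targeted shRNA, and the PELP1-KD group was 3 replicates of cells with a stable shRNA against PELP1, a coregulator of transcription that also takes part in ribosome production. Both lines were made with lentiviral particles, selected with puromycin and grown in RPMI medium with 10% FBS, and the study's methods name 1 PELP1 shRNA construct and 1 control construct. The comparison therefore cannot tell the loss of PELP1 apart from another effect of that construct, and the labels do not say whether replicates were separate cultures, so p-values measure the spread between these samples alone. PELP1 itself had 968, 1274 and 1069 counts in the control replicates against 557, 637 and 712 in the PELP1-KD replicates. Its level fell from 57.8 ± 2.14 to 29.6 ± 0.876 CPM, the counts scaled to library size (SD, n = 3 in each group).

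An antisense transcript is made from the strand opposite to a known gene. Some start from the same stretch of open promoter as the sense gene and run away from it, some start inside the sense gene and run back across its exons, and some overlap its far end. Antisense RNAs are in general less abundant than the mRNAs they face. Individual ones are known to hold or recruit chromatin regulators, to pair with the sense RNA, or to carry small nucleolar RNAs in their introns, while for many no role is known. AFAP1-AS1, ZEB1-AS1, CDKN2B-AS1 and ZNFX1-AS1 (now named ZFAS1, a host gene of small nucleolar RNAs) have been studied in cancer cells.

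In the GENCODE 29 annotation of GRCh38, 71 of the 76 antisense genes and all 74 partners had an entry, which placed 70 pairs. The exons of both genes overlapped in 51 of them, the antisense gene lay inside or across an intron of the partner in 13, and both genes were apart in 6. All 70 pairs were on opposite strands, and in 33 the closest starts of both genes lay within 1000 bases. The counts were made on hg19, so these positions describe the genes and not the reads. AATK-AS1, ATPAF1-AS1 and HOXB13-AS1 had no count in any replicate. Their entries are protein-coding genes with the newer names PVALEF, TEX38 and PRAC2, kept here because of their symbols.

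For 16 of the 19 pairs that were tested and had an entry, the spliced antisense RNA held at least 30 bases complementary to the spliced sense RNA. The longest such stretch ranged from 84 bases for MFI2-AS1 to 900 bases for ZNRD1-AS1, and it measured 192 bases for AFAP1-AS1, 249 for ZNFX1-AS1, 135 for MYLK-AS1 and 302 for TTC28-AS1. The middle 30 bases of the stretch in these 4 RNAs are shown 5′ to 3′ because the strand alone separates the RNAs of each pair there. They were read from GRCh38, and each lies in an annotated exon of the antisense gene and, on the other strand, in an annotated exon of the partner. The bases shown for ZNFX1-AS1 lie before the start window given for it below. An RNA that starts in that window does not hold them, so they belong to an annotated transcript with an earlier start.
AFAP1-AS1 against AFAP1, chr4:7772901-7772930, plus strand: cttgacctccgtcagctccagctccaggct
ZNFX1-AS1 against ZNFX1, chr20:49278287-49278316, plus strand: aggcgggcgcggctgaggggagcggaccgc
MYLK-AS1 against MYLK, chr3:123629544-123629573, plus strand: cgtcgaagtcccaggtggctgaggtaacgt
TTC28-AS1 against TTC28, chr22:27998675-27998704, plus strand: ctggcacaggccacagagacacgaggacac

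For 53 of the 76 antisense genes, a window from 250 bases before to 50 bases after the start was taken from the RefSeq table of promoters (GRCh38.p14). The windows of 3 genes whose values are described in detail are shown 5′ to 3′ on the strand of the antisense gene, with each match to the GC box GGGCGG, on either strand, in capitals. AFAP1-AS1 and AKIRIN2-AS1 had no window in the table.
ZNFX1-AS1 start window, chr20:49278392-49278691, plus strand: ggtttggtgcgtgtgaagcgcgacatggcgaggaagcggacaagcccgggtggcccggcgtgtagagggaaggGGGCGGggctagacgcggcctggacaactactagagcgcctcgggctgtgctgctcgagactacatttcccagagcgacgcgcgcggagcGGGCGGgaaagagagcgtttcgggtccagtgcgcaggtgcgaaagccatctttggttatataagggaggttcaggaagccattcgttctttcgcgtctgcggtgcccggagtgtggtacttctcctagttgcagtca
MYLK-AS1 start window, chr3:123585263-123585562, plus strand: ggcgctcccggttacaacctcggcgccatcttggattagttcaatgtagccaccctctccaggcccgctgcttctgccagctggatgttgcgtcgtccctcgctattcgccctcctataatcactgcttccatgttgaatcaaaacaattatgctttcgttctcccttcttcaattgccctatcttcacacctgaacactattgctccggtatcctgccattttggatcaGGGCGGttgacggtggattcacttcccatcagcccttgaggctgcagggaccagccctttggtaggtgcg
TTC28-AS1 start window, chr22:27919126-27919425, plus strand: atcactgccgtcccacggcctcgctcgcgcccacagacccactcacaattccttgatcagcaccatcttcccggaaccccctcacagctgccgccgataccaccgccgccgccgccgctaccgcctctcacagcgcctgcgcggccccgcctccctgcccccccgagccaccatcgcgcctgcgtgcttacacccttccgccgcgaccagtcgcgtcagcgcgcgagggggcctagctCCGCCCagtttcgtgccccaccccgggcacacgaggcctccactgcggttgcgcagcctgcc

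These 3 windows held 30, 14 and 36 CpG dinucleotides. The tested antisense genes had 16 windows for 14 genes, with a median of 24 CpG and a range of 11 to 38, while the median over all 35116 windows in the table was 14. The antisense genes at 0 in every replicate had 21 windows with a median of 5, where PPP2R3B-AS1 was counted on both X and Y. The GC box, which binds factors of the SP family, was found in 11 of the 16 windows of tested antisense genes and in 45.0% of all windows. CCAAT was found in 3 of the 16 and in 34.6% of all. Neither the E-box CACGTG, a motif bound by c-Myc among others, nor TATAAA occurred in any of the 16, against 7.26% and 11.5% of all windows. Each motif was searched on both strands, and none of the 4 contains another. No window was taken for HAS2-AS1, FER1L6-AS1 and ZFAT-AS1 or for their partners, which share a chromosome. The values over all windows may include that chromosome, so both sets of windows may not have been chosen alike.

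Depth ranged from 17304864 to 23132102 counts on genes in a replicate, so that 3 counts, taken as the floor of detection, stood for 0.127 to 0.177 CPM. Such floors cover counting error alone. Reads that fell on more than one gene at a place were between 0.976% and 1.02% of the uniquely aligned reads and were counted on neither. The markers of the line, VIM, CD44, AXL, EGFR and CAV1, ranged from 121 to 2070 CPM, ESR1, PGR and CDH1 had at most 4 counts in a replicate, while GATA3, a marker of luminal epithelium, was at 7.53 CPM. The leukocyte markers PTPRC, CD3E and CD79A had at most 0, 2 and 5 counts in a replicate, and the endothelial markers PECAM1 and CDH5 at most 7 and 6. ERBB2, which a triple negative line lacks as an amplified receptor, was at 115 CPM. FOXA1 was lower and VWF higher in the PELP1-KD replicates, with at most 26 and 20 counts in a replicate. In such bulk samples, fewer cells that express a gene and less RNA per cell cannot be told apart.

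At these depths most antisense genes were close to or below the floor. The 29 genes without a count included CDKN2B-AS1, a regulator of its neighboring cell cycle inhibitor genes, whose partner CDKN2B also had no count in any replicate, and GNAS-AS1, the paternally expressed antisense RNA of the imprinted GNAS locus. A count of 0 allows a level up to the floor, provided that reads of the gene align to a single place. ASMTL, PPP2R3B and PPP2R3B-AS1, all at 0, are listed at the same positions of chromosomes X and Y. Since reads with several alignments were counted on no gene, the floor may not bound their levels, which was not tested. Among the partners, 16 of 74 had no count in any replicate.

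Of these 29 antisense genes, 9 had a partner with enough counts to be tested: ATPAF1-AS1, FAS-AS1, GNAS-AS1, ITPK1-AS1, MORC2-AS1, NAV2-AS4, SMAD5-AS1, ST7-AS2 and ZFAT-AS1. GNAS, which encodes the stimulatory G protein alpha subunit, had 14828, 19944 and 15845 counts in the control replicates against 15767, 17218 and 19059 in the PELP1-KD replicates, while GNAS-AS1 had 0 in all 6. ENO1-AS1, chosen after its values were seen, had at most 1 count in a replicate beside 43148 to 60808 counts on ENO1, a glycolytic enolase.

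A further 19 antisense genes had a highest count between 1 and 9. These included RUSC1-AS1 with 4 to 8 counts, ADAMTS9-AS2 with 1 to 5 and DLX6-AS1 with 2 counts in a single replicate. Their partners RUSC1 and ADAMTS9 were tested. In this and every later test, the log2FC is the log2 fold change of PELP1-KD over control, and the adjusted p is that of the quasi-likelihood test in edgeR after Benjamini-Hochberg adjustment over all 12796 tested genes. RUSC1 rose (log2FC 0.13, standard error 0.047, adjusted p = 0.0301), but it did not pass by DESeq2 or without control replicate 1 or 2 or PELP1-KD replicate 1 or 2. For ADAMTS9, a secreted metalloprotease, the log2FC was -0.00 (standard error 0.17, adjusted p = 0.998). The remaining 7 antisense genes reached 10 counts in 1 or 2 replicates only. TLR8-AS1, chosen after its values were seen, was one of them, with 7, 4 and 4 counts in the control replicates against 13, 7 and 22 in the PELP1-KD replicates, while TLR8 had no count. The groups of TLR8-AS1 met at 7 counts, and it was not tested under the main filter.

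Among the 21 tested antisense genes, AFAP1-AS1 and ZNFX1-AS1 fell in PELP1-KD cells, MYLK-AS1 and AKIRIN2-AS1 rose, and 17 did not pass an adjusted p of 0.05. Over all tested genes, 24.2% were lower and 22.7% higher by this criterion, so that 46.9% passed in either direction, against 4 of 21 antisense genes (19.0%). Only AFAP1-AS1 also had a log2FC beyond 1 in size, where 3.24% of all tested genes did. The median log2FC of the 21 antisense genes was 0.07, and that of all tested genes was 0.0014. The control and PELP1-KD replicates did not overlap for 5 antisense genes, 4 lower and 1 higher, while 55.0% of all tested genes had groups that did not overlap.

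The levels of the tested antisense genes ran from 0.578 CPM for ST7-AS1 to 133 CPM for ZNFX1-AS1, with a median of 1.69 CPM, against 34.1 CPM over all tested genes. The error of a measured change was larger at such levels. The median standard error of the log2FC was 0.22 for antisense genes, 0.053 for sense partners and 0.063 for all tested genes. Of the 21 antisense genes, 19 were among the 3199 tested genes with the lowest mean CPM (up to 9.01 CPM). Of these 3199 genes, 33.3% passed an adjusted p of 0.05, as did 3 of the 19 antisense genes, and their median standard error was 0.19.

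**Figure D1:**
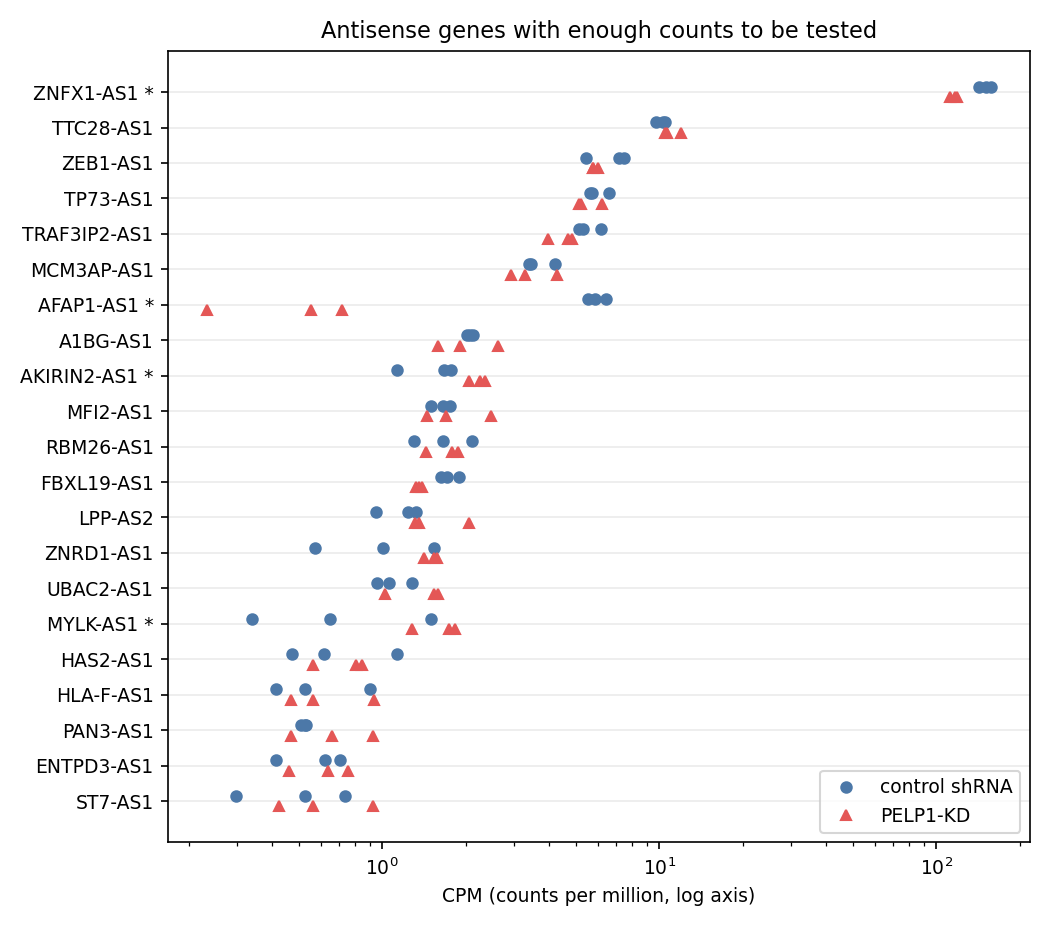
CPM of the 21 tested antisense genes on a log axis, with circles for the 3 control replicates and triangles for the 3 PELP1-KD replicates, ordered by mean CPM. Stars mark the 4 genes past an adjusted p of 0.05, of which AFAP1-AS1 has the widest gap between groups and ZNFX1-AS1 the highest level.

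**Figure D2:**
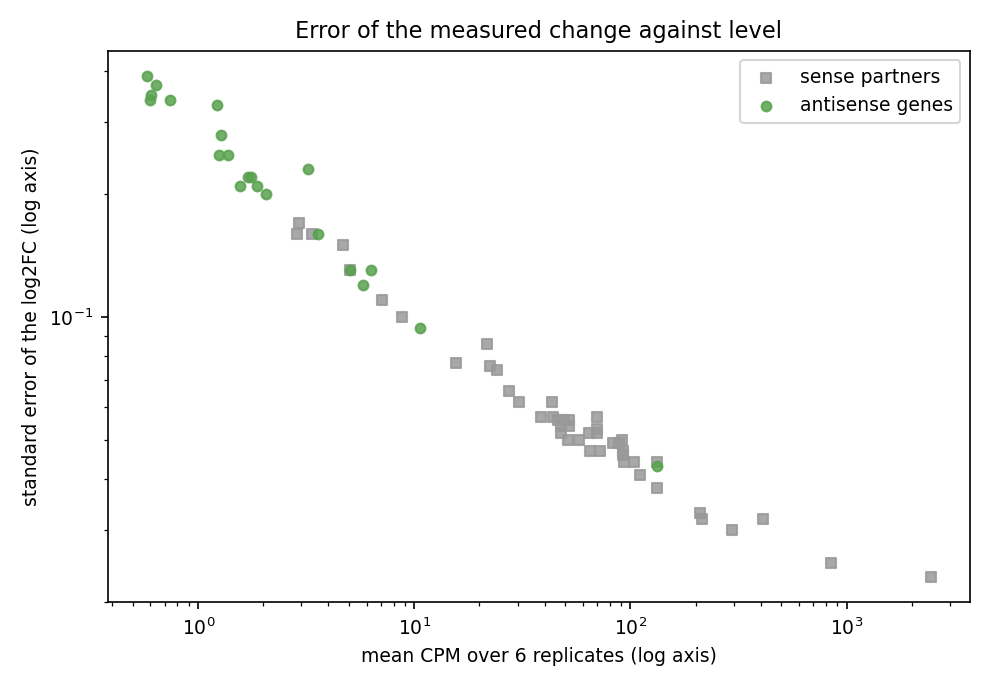
Standard error of the log2FC against mean CPM over the 6 replicates, both on log axes, for the 21 tested antisense genes (circles) and the 46 tested sense partners (squares). The error falls with the level, and most antisense genes sit at the upper left, where their median error is 0.22.

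AFAP1-AS1 showed the largest change of the antisense genes. It had 99, 146 and 98 counts in the control replicates against 14, 5 and 13 in the PELP1-KD replicates. Every PELP1-KD replicate was far below every control replicate. Its level went from 5.93 ± 0.458 to 0.502 ± 0.246 CPM (SD, n = 3), which is 91.5% lower (log2FC -3.57, standard error 0.23, adjusted p = 8.69e-11). Over all tested genes, 6 had a lower log2FC. AFAP1, which encodes an adaptor that binds actin filaments and Src, had 3885, 5097 and 3983 counts in the control replicates against 3719, 4123 and 4484 in the PELP1-KD replicates. In CPM the groups of AFAP1 did not overlap, with 226 ± 3.13 in the control cells and 192 ± 1.51 in PELP1-KD cells. The log2FC was -0.24 (standard error 0.033, adjusted p = 4.84e-06). Both genes of the pair fell, and the log2FC of AFAP1-AS1 minus that of AFAP1 was -3.33 (95% interval -3.78 to -2.88).

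Per length, AFAP1 was the more abundant RNA of the pair, with a ratio of 25.8 to AFAP1-AS1 in reads scaled to exon length and library size (RPKM) in the control cells. The closest annotated starts of both genes, over all their transcripts, are 25097 bases apart. Of the 6795 annotated exon bases of AFAP1-AS1, 523 (7.70%) lie on exons of AFAP1. Control replicates 1, 2 and 3 had 2.55, 2.86 and 2.46 AFAP1-AS1 reads for each 100 AFAP1 reads. The PELP1-KD replicates had 0.376, 0.121 and 0.29. Every PELP1-KD replicate was lower.

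ZNFX1-AS1 was the most abundant antisense gene and held 70.4% of all antisense reads. It had 2396, 3421 and 2780 counts in the control replicates against 2325, 2487 and 2627 in the PELP1-KD replicates. Scaled to depth, these were 142, 151 and 157 CPM against 119, 117 and 112 CPM, with no overlap. The level fell from 150 ± 7.49 to 116 ± 3.89 CPM, which is 22.6% lower (log2FC -0.37, standard error 0.043, adjusted p = 4.97e-07). Its partner moved the other way. ZNFX1, a helicase-like zinc finger protein that senses double-stranded RNA, had 1820, 2363 and 1816 counts in the control replicates against 2281, 2556 and 2651 in the PELP1-KD replicates, from 105 ± 2.73 to 116 ± 3.62 CPM (log2FC 0.15, standard error 0.041, adjusted p = 0.00405). The closest starts of both genes are 41 bases apart, on opposite strands, and 249 of 2243 annotated exon bases of ZNFX1-AS1 (11.1%) lie on ZNFX1 exons.

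For each 100 ZNFX1 reads there were 132, 145 and 153 ZNFX1-AS1 reads in the control replicates against 102, 97.3 and 99.1 in the PELP1-KD replicates. The log2FC of ZNFX1-AS1 minus that of ZNFX1 was -0.53 (95% interval -0.64 to -0.41). The sum over all antisense genes followed ZNFX1-AS1 and fell from 207 ± 6.67 to 170 ± 4.49 CPM. Without ZNFX1-AS1 the sum was 57.2 ± 1.35 against 53.8 ± 1.8 CPM, and without AFAP1-AS1 as well it was 51.2 ± 0.965 against 53.3 ± 1.56 CPM, a log2 ratio of 0.06.

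MYLK-AS1 had 11, 34 and 6 counts in the control replicates against 25, 39 and 41 in the PELP1-KD replicates. Control replicate 2 lay above PELP1-KD replicate 1, so the groups overlapped. The log2FC was 0.88 (standard error 0.33, adjusted p = 0.0345), and with 1 replicate left out at a time it was between 0.53 and 1.72. It did not pass without control replicate 1 or 3 or PELP1-KD replicate 2 or 3, with adjusted p from 0.0538 to 0.165. MYLK, the myosin light chain kinase, had 1435, 1914 and 1444 counts in the control replicates against 2056, 2210 and 2315 in the PELP1-KD replicates and rose (log2FC 0.29, standard error 0.044, adjusted p = 1.22e-05).

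AKIRIN2-AS1 had 30, 38 and 20 counts in the control replicates against 40, 50 and 53 in the PELP1-KD replicates. Its groups did not overlap, and the log2FC was 0.53 (standard error 0.21, adjusted p = 0.0397). With 1 replicate left out at a time the log2FC was between 0.37 and 0.63, and it passed only without control replicate 1, with adjusted p from 0.0524 to 0.185 without any other. AKIRIN2, a nuclear protein needed for proteasomes to enter the nucleus, had 618, 905 and 729 counts against 913, 1024 and 1168 and rose as well (log2FC 0.30, standard error 0.057, adjusted p = 2.09e-04). By DESeq2 neither MYLK-AS1 nor AKIRIN2-AS1 passed, with adjusted p of 0.0689 and 0.144.

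The other antisense genes with high levels did not pass the test. ZEB1-AS1, at 7.15, 5.46 and 7.43 CPM in the control replicates against 5.75, 5.77 and 6.03 in the PELP1-KD replicates, had a log2FC of -0.17 (standard error 0.13, adjusted p = 0.277). ZEB1, a transcription factor of the epithelial to mesenchymal transition, fell by 0.38 on the log2 scale (standard error 0.053, adjusted p = 7.19e-06), from 78.9 ± 6.25 to 60.7 ± 0.912 CPM. The change of the antisense RNA minus that of ZEB1 was 0.20, with a 95% interval of -0.07 to 0.48 that includes 0.

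TP73-AS1 overlaps exons of TP73, a member of the p53 family. It had 346 counts over the control replicates and 356 over the PELP1-KD replicates (log2FC -0.12, standard error 0.12, adjusted p = 0.449). TP73 had a log2FC of -0.03 (adjusted p = 0.824). TRAF3IP2-AS1 was lower in every PELP1-KD replicate, at 3.98 to 4.84 CPM against 5.13 to 6.16 CPM in the controls, but did not pass the adjusted threshold (log2FC -0.31, standard error 0.13, adjusted p = 0.0616). Its partner TRAF3IP2, an adaptor of interleukin 17 signaling, had a log2FC of -0.10 (adjusted p = 0.357).

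MCM3AP-AS1 had a log2FC of -0.06 (standard error 0.16, adjusted p = 0.78), while MCM3AP, which takes part in mRNA export, rose by 0.12 on the log2 scale (adjusted p = 0.0147). MCM3AP did not pass without control replicate 2 or 3 or PELP1-KD replicate 1, at a log2FC of 0.11. A1BG-AS1 and its partner, a plasma glycoprotein gene, had log2FC of -0.04 and 0.20, with adjusted p of 0.899 and 0.324. ST7-AS1 (0.25, adjusted p = 0.623) and ST7 (0.05, adjusted p = 0.633) did not pass either.

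Sense partners were measured with more reads, and 46 of the 74 were tested. Of these, 20 fell and 10 rose, which is 65.2%, against 46.9% of all tested genes. None had a log2FC beyond 1. The median log2FC of the 46 was -0.06. The lowest values were those of TTC28, HAS2, TIPARP, NAV2, SMAD5 and CYP1B1, from -0.82 to -0.58, and the highest was 0.97 for HLA-F. These were picked after their values were seen. TIPARP, an ADP-ribosyltransferase, fell by 0.67 on the log2 scale and CYP1B1, a cytochrome P450, by 0.58. Both are known targets of the aryl hydrocarbon receptor. SMAD5, a mediator of BMP signaling, fell by 0.59 (159 ± 4.02 to 106 ± 6.79 CPM, adjusted p = 9.20e-10), with SMAD5-AS1 at 0 counts in all 6 replicates. The antisense RNAs of TIPARP, NAV2, SMAD5 and CYP1B1 had too few counts for the main test. TIPARP-AS1 had 2, 3 and 1 counts in the control replicates against 2, 6 and 13 in the PELP1-KD replicates, and CYP1B1-AS1 had 2, 12 and 6 against 8, 6 and 13. Their groups overlapped, and with no filter on low counts their log2FC were 1.58 (standard error 0.71, adjusted p = 0.067) and 0.27 (standard error 0.49, adjusted p = 0.708). NAV2-AS4 and SMAD5-AS1 had no count.

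For 20 pairs both genes were tested, and their changes went the same way in 11 and opposite ways in 9. Both rose in 6 pairs, both fell in 5, the antisense gene alone was higher in 5, and the sense gene alone was higher in 4, whether or not either passed the test. Among 1048 other pairs of tested genes whose starts lie within 1000 bases on opposite strands, 597 (57.0%) had changes of the same sign. Of the 20 antisense pairs, 13 were annotated with such starts, and 6 of these 13 had the same sign. In 4 pairs both genes passed an adjusted p of 0.05: AFAP1-AS1 with AFAP1 (both lower), MYLK-AS1 with MYLK and AKIRIN2-AS1 with AKIRIN2 (both higher), and ZNFX1-AS1 with ZNFX1 (opposite). In 10 pairs the sense gene alone passed, in none the antisense gene alone, and in 6 neither. Spearman's correlation between the log2FC of antisense and sense genes was 0.30 and Pearson's 0.20 over the 20 pairs, given as a description, since the pairs share libraries and their errors differ widely. Without the AFAP1-AS1 pair they were 0.27 and 0.20.

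**Figure D3:**
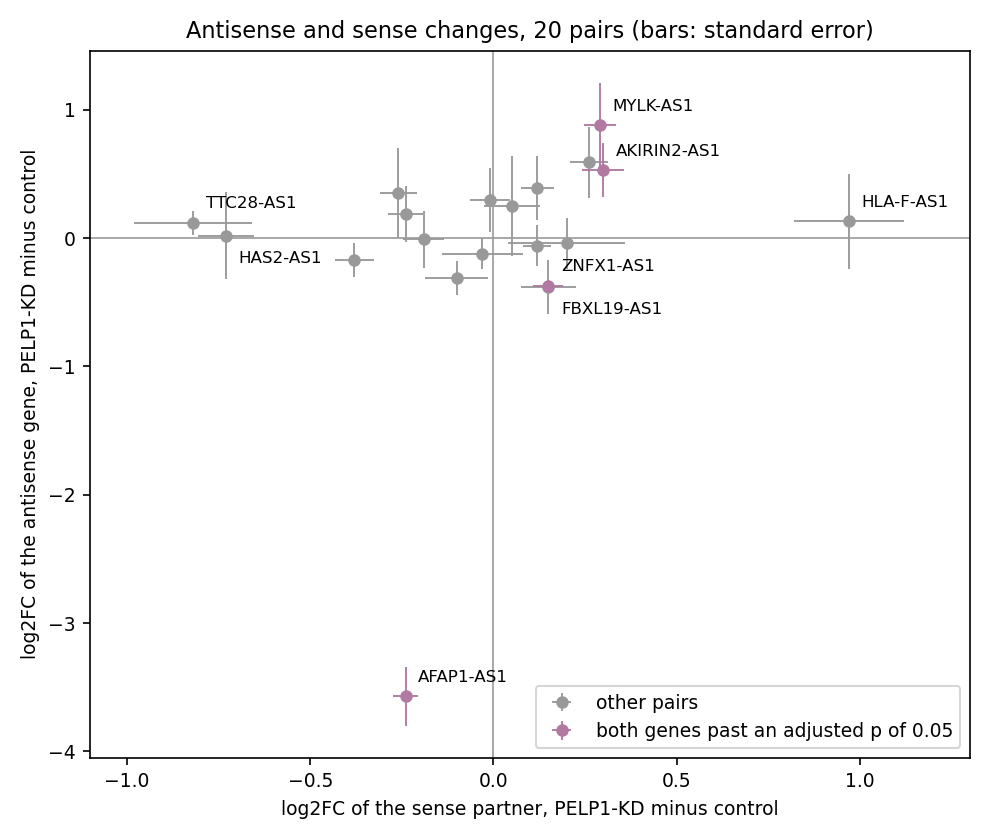
Log2FC (PELP1-KD minus control) of the antisense gene against that of its sense partner for the 20 pairs with both genes tested, with standard errors as bars. The points spread over all 4 quadrants, 11 of them on the same side of 0 on both axes, and the 4 pairs with both genes past an adjusted p of 0.05 are colored.

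Arrangement divided these pairs into small groups. Of the 16 tested pairs with overlapping exons, 9 changed with the same sign, as did TRAF3IP2-AS1, which shares no exon bases with its partner. PAN3-AS1 and UBAC2-AS1, which the annotation places apart from their partners by 313 and 64 bases, had the opposite sign. Of the 13 tested pairs with starts within 1000 bases, 6 had the same sign, and of the other 6 pairs, 4 did. AKIRIN2-AS1 had no entry. The difference between these groups was not tested.

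Within each replicate the ratio of antisense to sense reads does not depend on library scaling. The difference of both log2FC had a 95% interval that excluded 0 in 6 of the 20 pairs, without adjustment over the 20. The antisense gene moved below its partner in AFAP1-AS1 (-3.33), HLA-F-AS1 (-0.84), FBXL19-AS1 (-0.53) and ZNFX1-AS1 (-0.53), and above it in TTC28-AS1 (0.94) and HAS2-AS1 (0.75). Among these 6 pairs, the replicates of the groups did not overlap in this ratio for AFAP1-AS1, FBXL19-AS1, TTC28-AS1 and ZNFX1-AS1, while they overlapped for HAS2-AS1 and HLA-F-AS1. Of the other 14 pairs, PAN3-AS1 (higher in PELP1-KD cells) and TRAF3IP2-AS1 (lower) had ratios that did not overlap between the groups, although the intervals of their differences, -0.08 to 1.31 and -0.52 to 0.10, included 0.

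TTC28-AS1 and TTC28, a tetratricopeptide repeat gene, were a pair in which the sense gene changed and the antisense gene did not pass the test. TTC28-AS1 had 178, 221 and 182 counts in the control replicates against 234, 223 and 253 in the PELP1-KD replicates (log2FC 0.12, standard error 0.094, adjusted p = 0.292). TTC28 had 72, 101 and 73 counts against 44, 60 and 52, with no overlap in CPM, and fell by 0.82 on the log2 scale (standard error 0.16, adjusted p = 2.02e-04). The antisense gene held 76.3% of the reads of this pair. For each 100 TTC28 reads there were 247, 219 and 249 TTC28-AS1 reads in the control replicates against 532, 372 and 487 in the PELP1-KD replicates.

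HLA-F, a nonclassical class I gene, and HAS2, a hyaluronan synthase, showed the same form and were singled out after their values were seen. HLA-F had 55, 78 and 49 counts in the control replicates against 134, 141 and 123 in the PELP1-KD replicates and rose (log2FC 0.97, standard error 0.15, adjusted p = 1.78e-05). HLA-F-AS1 had 7 to 16 counts in the control replicates against 10 to 22 in the PELP1-KD replicates (log2FC 0.13, standard error 0.37, adjusted p = 0.8). At this depth a change of HLA-F-AS1 as large as that of its partner lies just outside its 95% interval of -0.60 to 0.85.

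HAS2 had 337, 443 and 338 counts against 226, 248 and 282 and fell by 0.73 on the log2 scale (standard error 0.077, adjusted p = 1.47e-07). HAS2-AS1 had 8, 14 and 20 counts against 11, 18 and 19 (log2FC 0.02, interval -0.64 to 0.69). FBXL19-AS1 was at 1.71, 1.89 and 1.63 CPM in the control replicates against 1.39, 1.36 and 1.32 in the PELP1-KD replicates, all lower, without passing the test (log2FC -0.38, standard error 0.21, adjusted p = 0.145). FBXL19, an F-box protein of ubiquitin ligases, had a log2FC of 0.15 (adjusted p = 0.105).

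**Figure D4:**
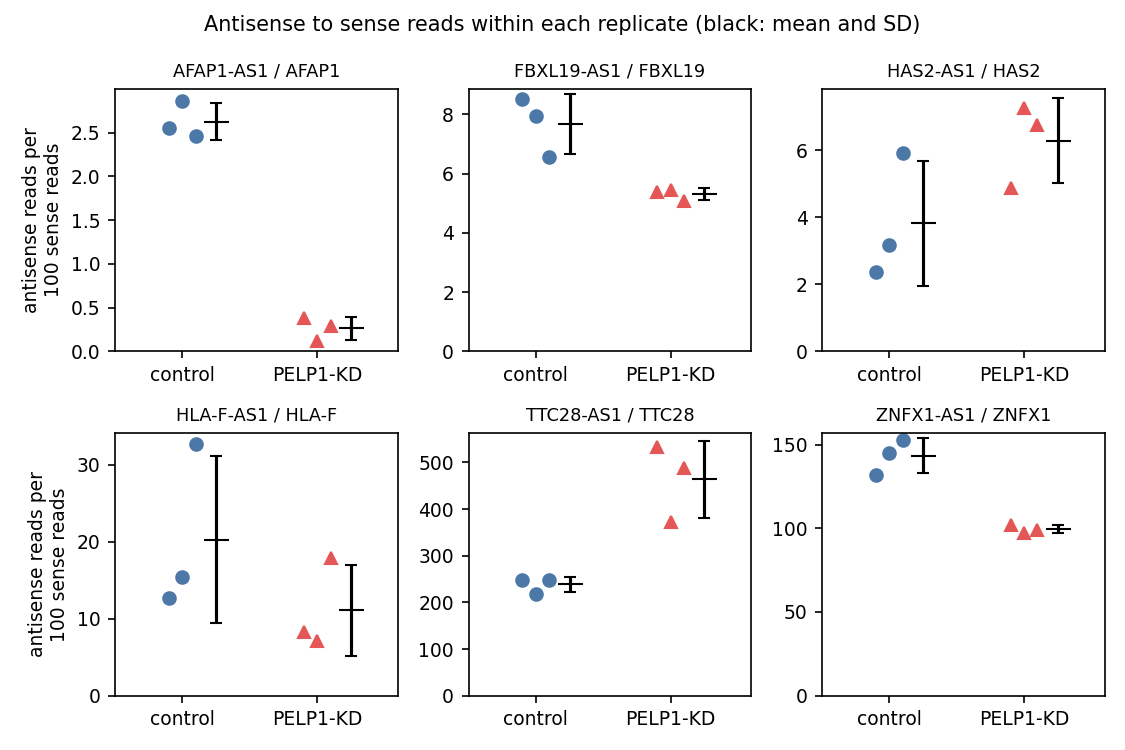
Antisense reads for each 100 sense reads in the 3 control replicates (circles) and the 3 PELP1-KD replicates (triangles) of the 6 pairs whose difference in log2FC has an interval that excludes 0, with the mean and SD in black. The groups are separate for AFAP1-AS1, FBXL19-AS1, TTC28-AS1 and ZNFX1-AS1, and overlap for HAS2-AS1 and HLA-F-AS1.

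Levels within a pair were compared per exon length. In the 19 pairs with a length, the sense RNA had a median of 8.41 times the RPKM of the antisense RNA in the control cells, and the highest ratio was 199 for ZNRD1 and ZNRD1-AS1. The antisense RNA was the higher one in A1BG-AS1, TTC28-AS1 and ZNFX1-AS1, where the ratio of sense to antisense RPKM was 0.898, 0.36 and 0.168. ZNFX1-AS1 and TTC28-AS1 also had more reads than their partners. ENTPD3-AS1 was the 1 tested antisense gene without a tested partner and did not pass (log2FC 0.07, adjusted p = 0.882).

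Genes for the handling of antisense RNA were followed as lists written from general knowledge. Beside each count stands the share of all tested genes, 24.2% lower and 22.7% higher. Of 20 subunits and adaptors of the nuclear RNA exosome, which degrades short-lived nuclear RNA, 8 fell and 5 rose. ZFC3H1, which links polyadenylated RNA to the exosome, fell by 0.38 on the log2 scale (adjusted p = 2.77e-06), and the core subunit EXOSC9 rose by 0.27 (adjusted p = 8.76e-06). Of 15 genes that edit, bind or cut double-stranded RNA, 5 fell and 2 rose. DHX9, an RNA helicase, and STAU1, which binds RNA duplexes, fell by 0.25 and 0.17.

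Of 11 genes of Polycomb repressive complex 2, which writes a repressive histone mark, 4 fell and 1 rose, with SUZ12 and PHF19 down by 0.29 and 0.22 on the log2 scale. Of 18 genes for termination and cleavage of transcripts near promoters, 3 fell and 3 rose. CSTF3, a cleavage factor, fell by 0.37, and RDBP, a subunit of the NELF pausing complex, rose by 0.19. NRD1 stands in this list by mistake, as it encodes the protease nardilysin, and without it the counts were 3 and 3 of 17. None of these genes had a log2FC beyond 1, and the median log2FC of the 4 lists lay between -0.09 and 0.02. The lists of 20, 15, 11 and 18 tested genes together had 20 lower and 11 higher. This is to be read against the 24.2% lower and 22.7% higher of all tested genes.

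By symbol alone, few genes matched the patterns taken for other classes of long noncoding genes. Host genes with a digit after HG, or named otherwise as ZNFX1-AS1 is, fall outside these patterns. No symbol ended in -OT and a digit or started with LINC and digits. Of 7 host genes whose symbol ends in HG, 4 were tested, 1 fell and 1 rose, where 46.9% of all tested genes passed in either direction. The 2 genes ending in -IT and a digit had too few counts to be tested.

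The libraries were prepared with a kit that keeps the strand of the RNA. Whether the counting used the strand is not given in the sources used here. If it did not, reads from a gene and its antisense partner cannot be told apart, and reads on exon bases of both would be among those counted on neither. Every antisense value above is uncertain to that extent. The part of overlapping exon bases in the antisense gene was 28.0% or less in all 19 tested pairs with an entry. Some untested antisense genes had more, up to 97.8% for ZFAT-AS1 and 60.0% for MORC2-AS1, both at 0 counts. If the strand was not used, a count of 0 there may also stand for reads counted on neither gene.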

How the data were processed

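RNA-seq was done by the authors on 3 control and 3 PELP1-KD replicates of MDA-MB-231, with stranded mRNA libraries and single reads of 50 bases. The authors deposited whole-number counts of reads per gene symbol for each replicate, without normalization. The submitters' processing notes name bcl2fastq, TopHat2, SAMtools, HTSeq and hg19. Their versions, the annotation and the strand setting are not given in the sources used here. The closing totals that name no gene were left out of the library sizes: reads on no gene were 11.3% to 12.2% of uniquely aligned reads, and reads with several alignments, counted on no gene, were 32.5% to 32.9% of all reads.

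Antisense genes were the symbols ending in -AS and 1 digit. Counts were tested with edgeR 4.0.16 in R 4.3.3 on the whole table (filterByExpr with a minimum of 10 counts, TMM, quasi-likelihood test, Benjamini-Hochberg adjustment), which kept 12796 genes. The methods of the study use DESeq2, which was run as an alternative (1.42.0), as was voom in limma 3.58.1. Each standard error was obtained from the log2FC and the square root of the F statistic, as their quotient. Every 95% interval reached 1.96 standard errors to each side. The 95% interval of a difference between both log2FC of a pair took the errors as independent. The biological coefficient of variation was 3.52%. Replicates of a group differed by more than sampling noise (chi-square per degree of freedom from 1.46 to 3.99), so none was merged. RPKM used exon lengths of GENCODE 29, whose build differs from hg19. Python 3.11.15 and matplotlib 3.10.9 drew the figures. The scripts were tested on simulated data.

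Genes named are antisense genes past an adjusted p of 0.05 and a log2FC of 1, the 8 antisense genes with the highest CPM, pairs with both genes past an adjusted p of 0.05, antisense genes from a written list of 36 known ones (10 of them in the tables), all with their partners, the 2 genes of each list with the lowest adjusted p, and PELP1. Others are named as chosen after their values were seen, or because a count of few genes covers them. The members, lists and tests were chosen with earlier results of these data known. Alternatives were RLE factors, library totals, other filters, the replicate number as a block and leaving out each replicate.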

Additional observations from a re-analysis of the deposited data

How the results depend on the processing

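AFAP1-AS1 and ZNFX1-AS1 were lower under every alternative that tested them. A filter of at least 10 counts in every sample left AFAP1-AS1 out. Of 636 values of 46 followed genes under the alternatives, 615 stayed on their side of the threshold, 19 fell below it and 2 rose past it. Among values past the threshold in the main fit or the alternative, 0 changed direction. The direction of values that passed in neither was not followed. With DESeq2, 0 antisense genes were higher and 1 pair had both genes past the threshold with the same sign. With voom, 2 antisense genes had a log2FC beyond 1 (MYLK-AS1 at 1.11 joined AFAP1-AS1). With no filter on low counts, 47 antisense genes were tested, TLR8-AS1 was also higher, 2 antisense genes and 1 partner were beyond 1, 21 of 40 pairs had the same sign and Spearman's correlation was 0.046. With at least 10 counts in every sample, 1 antisense gene was lower, 1 higher and 0 beyond 1, 7 pairs had the same sign and 1 had both genes past the threshold with the same sign. Library totals alone moved the median log2FC of all genes to 0.051 and put 1 partner beyond 1.

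With each replicate left out in turn, 0 to 3 antisense genes were higher, 1 to 2 were beyond 1, 0 to 1 partners were beyond 1, 1 to 3 pairs had both genes past the threshold with the same sign, Spearman's correlation was 0.13 to 0.40, and 7 to 11 genes of the lists on RNA handling were higher. No antisense gene was higher without control replicate 3 or without PELP1-KD replicate 3. Without control replicate 1 or PELP1-KD replicate 2, MYLK-AS1 was lost and TLR8-AS1 was higher. Without control replicate 1, ZNRD1-AS1 was higher as well (log2FC 0.97, adjusted p = 0.00815 in edgeR). The cause of these shifts was not tested beyond the construction of each alternative. The following alternatives were chosen after seeing the data. Among pairs with starts within 1000 bases, 6 of 13 had the same sign, without the AFAP1-AS1 pair the correlation was 0.27, and without ZNFX1-AS1 the log2 ratio of summed antisense CPM was -0.09 in place of -0.29.

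Same-numbered replicates of both groups deviated from their group means with correlations of 0.039, 0.065 and -0.078, so the numbers were not taken as pairs. Control replicates 1 and 3 and PELP1-KD replicates 2 and 3 correlated best with another number. With a replicate block, 3335 of all tested genes were lower and 3140 higher (3103 and 2904 without it), the counts of antisense genes were 2 and 2, and 10 pairs had the same sign. Depth sets the floor at 3 counts, or 0.127 to 0.177 CPM, and 29 of 76 antisense genes were at 0. This was not told apart from reads lost to several alignments or to exon bases shared with another gene.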
